A study of Bos taurus with 8 samples.

Results

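The genes of the mitochondrial respiratory chain were compared between primary muscle cell cultures of beef and dairy bulls. The members were the array probes whose gene symbol begins with NDUFA, NDUFB, NDUFC, NDUFS, NDUFV, SDHB, SDHC, SDHD, UQCR, COX4 to COX8 or ATP5, or is *CYC1* or *CYCS*. A symbol could be given to 8297 of the 21475 probes on the array, through the RefSeq accession of the probe, and these stood for 7788 genes. Of them, 69 genes were members, each with 1 probe. The rule also covers 28 genes of the RefSeq table for which no probe was matched, among them *CYCS*, *COX5A*, *COX5B*, *COX6A1*, *COX8B*, *UQCRC2* and *ATP5F1C*, and these were not analysed here. All 69 members passed the filter on dim probes, and 68 of them were well above background in all 16 channels. *COX4I2* was the exception, well above background on 4 of 4 LIM channels, on 1 of 4 HER channels and on 2 of the 4 HF channels of each comparison.

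Muscle cells had been isolated from the semitendinosus of bulls aged 15 months, 4 each of Limousin (LIM) and Hereford (HER), which are beef breeds, and of Holstein-Friesian (HF), a dairy breed. They were grown without differentiation medium to 80% confluence. Each of 8 two-colour arrays carried RNA of a beef breed culture beside RNA of an HF culture, with HER in Cy3 against HF in Cy5 on 4 arrays, and LIM in Cy5 against HF in Cy3 on 4. The cultures were enriched for myoblasts by repeated preplating, so they also held other cells. Both comparisons drew on cultures of the same 4 HF bulls, and which of these was on which array is not given in the sources used here. The tests over 8 arrays take the arrays as independent and leave this shared HF side out of account, so their p-values may be too small and a like sign in LIM and HER may in part repeat the HF side. Values are log2 ratios of beef breed over HF within an array, so a value of 0 is an equal level, and they give no level of one gene against another. The mean of the LIM and HER ratios, called beef over HF here, balances the dyes, whereas within LIM or HER alone the breed, the slide and the dye orientation cannot be told apart.

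The respiratory chain passes electrons from NADH and succinate to oxygen in the inner mitochondrial membrane. Complex I (NADH dehydrogenase) and complex II (succinate dehydrogenase) feed electrons to ubiquinone, complex III (the cytochrome bc1 complex) passes them on to cytochrome c, and complex IV (cytochrome c oxidase) hands them to oxygen. Complexes I, III and IV pump protons, and complex V (ATP synthase) uses the gradient to make ATP. In striated muscle some complex IV subunits exist in a muscle form beside a general form.

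Over all tested probes, the SD of the log2 ratios on an array lay between 0.65 and 0.98. LIM replicate 4 stood apart by its array weight of 0.3, the lowest. Its correlations to the other arrays across probes lay between 0.08 and 0.56. HER replicate 3, with an array weight of 1.2, had correlations between 0.08 and 0.63. Its median correlation of 0.43 was the lowest, against 0.54 for LIM replicate 4. The ratios of LIM replicate 4 are included unless stated. Of 14 tested markers of differentiating muscle cells, 13 were higher in beef breed cells and *PYGM* had a ratio of 0.00, with medians between 2.11 and 3.78 on the LIM arrays and between 2.16 and 2.85 on the HER arrays. Of 6 myoblast markers 5 were higher (median 1.46), of 10 fibroblast markers 7 were higher and 2 lower (median 1.13), and of 4 smooth muscle markers 2 were higher (median 0.97). The fibroblast marker *DCN*, counted as higher by its brighter probe, had 2 tested probes that differed in sign. Of 7 genes of dividing cells, 5 were lower and 0 higher (median -0.74), with medians between -1.44 and 0.46 on the LIM arrays and between -1.12 and -0.23 on the HER arrays. Adipocyte markers were split (2 higher and 2 lower of 5, median 0.29), 1 of 2 leukocyte markers was higher (median 0.41), and 0 of 2 endothelial markers passed (median 1.14). The part of these cell types and states in the respiratory chain results was not tested, and in bulk RNA fewer cells of a type and less RNA per cell cannot be told apart.

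Respiratory chain genes did not move as a block in beef breed cells. By the mean of the LIM and HER ratios, 18 of the 69 members were higher and 16 lower than in HF cells, and 35 did not pass. The highest were *ATP5F1E*, *COX7A1* and *ATP5MJ*, with mean log2 ratios of 1.59, 1.48 and 1.10, and the lowest were *COX6B2*, *CYC1* and *UQCRC1*, with -1.02, -0.58 and -0.53. Calls were made at an adjusted p of at most 0.05 from limma with Benjamini-Hochberg adjustment over all 17631 probes tested. The shares of the members were 26.1% higher and 23.2% lower, against 21.4% and 26.2% of all probes tested. With these scanner ratios the members were thus called about as often as probes in general. With normexp background correction and loess in their place, 18 members were higher and 17 lower. The share of all probes called in either direction was then 35.6%, against 47.5% with the scanner ratios, so the likeness did not hold in that setting. The median ratio of the members was -0.02, and that of all probes tested was -0.04. On all 8 arrays, 11 members (15.9%) were above 0 and 9 (13%) below 0, against 11.7% and 16.9% of all probes tested. Without replicate 4 of both comparisons, a setting chosen after LIM replicate 4 was seen to stand apart, 23 members were higher and 19 lower. The shares of all probes called in that setting are not given here, so these counts are not set against probes in general.

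**Figure D1:**
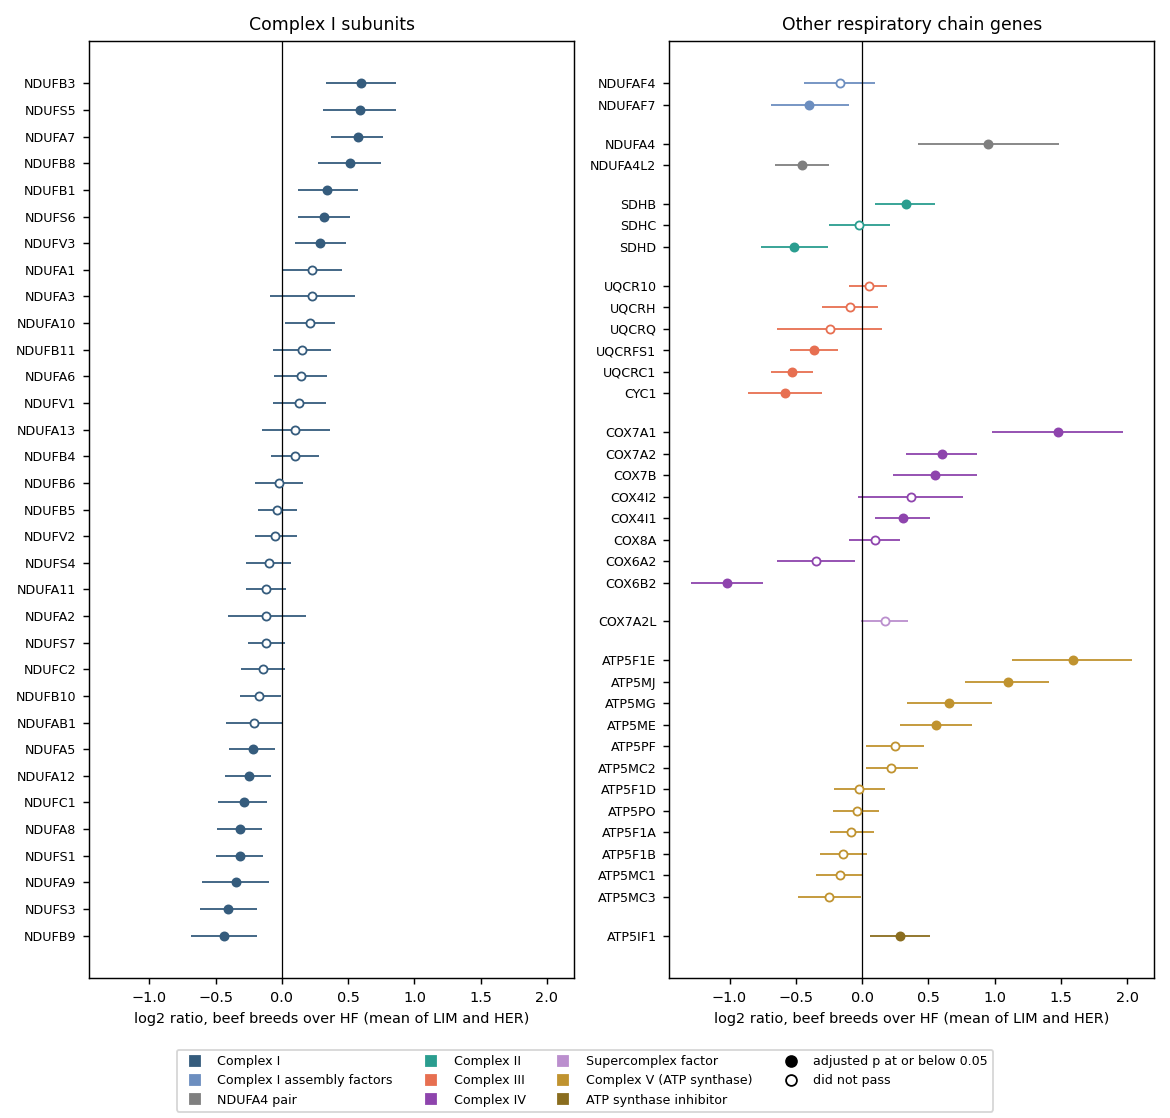
Mean log2 ratio of beef breed over HF cells for 68 respiratory chain genes, with the 95% interval of the limma fit over 8 arrays. Filled circles passed an adjusted p of 0.05 and open circles did not. Complex IV and complex V reach to 1.48 and 1.59, whereas the 6 complex III genes lie between -0.58 and 0.05.

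Taken by comparison, 13 members were higher and 10 lower in LIM than in HF, against 16.6% and 19.3% of all probes tested. In HER, 12 members were higher and 9 lower than in HF, against 10.7% and 14.7% of all probes tested. Calls in both LIM and HER were fewer, with 6 members higher in both and 2 lower in both. Over the 17631 probes tested, 1359 were higher in both and 1723 lower in both. The LIM and HER counts changed when single arrays were left out. Without LIM replicate 1, 2 or 3 the LIM counts were 7 higher and 5 lower, 6 and 4, or 6 and 3. Without HER replicate 1 or 2 the HER counts were 2 higher and 1 lower, without HER replicate 3 they were 5 and 4, and without HER replicate 4, 3 members were lower. Removing LIM replicate 2 or 3, which changes the pooled spread, left 7 higher and 5 lower in HER. Without LIM replicate 4, 15 were lower in HER. The shares of all probes called on leaving out an array are not given here. These changes are therefore not read as a trait of the members. With normexp background correction and loess in place of the scanner ratios, 0 members passed in HER by the adjusted limma p, and neither did any other probe. At an unadjusted p of at most 0.05, 14 members were higher and 16 lower in that setting, 43.5% of the members against 16.3% of all probes tested. The LIM minus HER difference passed for 0 of the 69 members by the adjusted limma p, against 0.233% of all probes tested. With the scanner ratios, 6 members (8.7%) had an unadjusted limma p of at most 0.05 for this difference, against 14.7% of all probes tested. With normexp and loess it was 16 members (23.2%), against 14.7% of all probes tested, so the order of the shares turned with the processing.

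The complexes had different medians. Complex IV had the highest beef over HF median, 0.34 over 8 genes, with 4 higher and 1 lower. The genes on either side of this median were *COX4I2* (0.37), the dim probe, which did not pass, and *COX4I1* (0.31). *NDUFA4* was kept apart and is not among these 8 genes. Complex V had 0.10 over 12 genes, with 4 higher and 0 lower. Complex I had -0.04 over 34 genes, with 7 higher and 9 lower, and complex II had -0.02 over 3 genes, with 1 higher and 1 lower. Complex III had the lowest, -0.30 over 6 genes, with 0 higher and 3 lower. The median of the complex III genes was below 0 on every array, between -0.49 and -0.23 for LIM and between -0.58 and -0.09 for HER. That of the complex IV genes was above 0 on every array, between 0.03 and 0.52 for LIM and between 0.20 and 0.43 for HER. These medians are descriptions of few genes, and no test between complexes was made. With normexp and loess the complex IV median was 0.15.

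**Figure D2:**
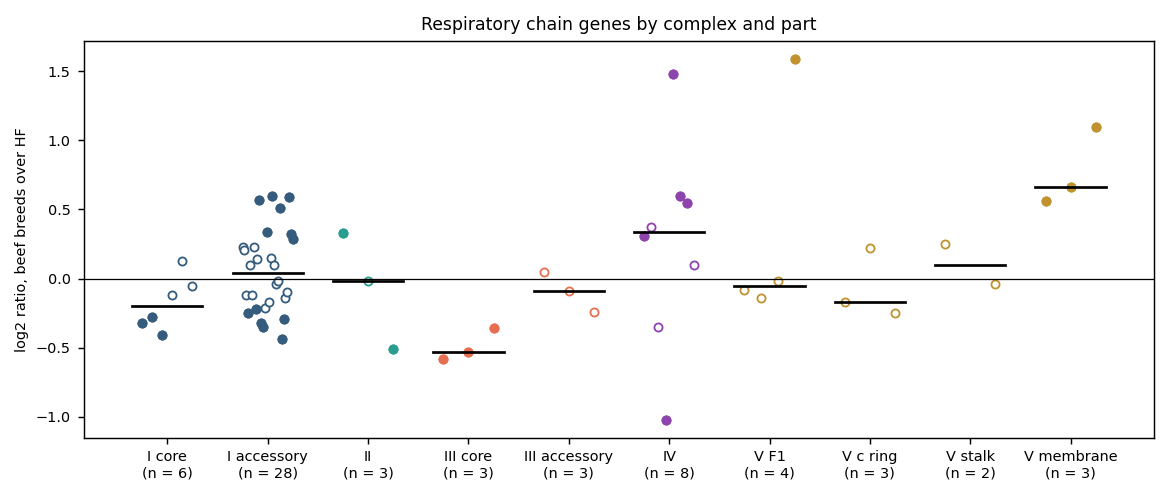
Mean log2 ratio of beef breed over HF cells for the genes of the 5 complexes, with complexes I, III and V divided into their parts. Each circle is 1 gene, filled where the adjusted p was at most 0.05, and the bar is the median of the group. The core subunits of complex III (median -0.53) and the membrane subunits of complex V (median 0.66) lie on opposite sides of 0.

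In complex I, the core subunits, which hold the flavin and iron-sulfur clusters of the electron path, had a median of -0.20 over 6 genes, with 3 lower and 0 higher. *NDUFS3* had ratios of -0.78, -0.38, -0.20 and 0.02 on the LIM arrays and -0.50, -0.57, -0.44 and -0.39 on the HER arrays. Only LIM replicate 4 was not below 0. The mean was -0.41 ± 0.10 (SE, 8 arrays; limma adjusted p = 0.00859). *NDUFS1*, the largest core subunit, had ratios of -0.72, -0.37, -0.61 and -0.87 in HER and of -0.09, 0.07, -0.08 and 0.10 in LIM. The groups did not overlap, and only the HER arrays lay clearly below 0. For HER the mean was -0.64 ± 0.21 (SD, n = 4; limma adjusted p = 0.00716), for LIM it was 0.00 ± 0.10 (SD, n = 4; limma adjusted p = 0.999), and the difference itself did not pass (limma adjusted p = 0.139). The beef over HF mean was -0.32 ± 0.08 (SE; limma adjusted p = 0.01), a call lost with normexp and loess (-0.17, limma adjusted p = 0.143). The NADH-binding subunit *NDUFV1* (0.13 ± 0.09 SE), *NDUFV2* (-0.05) and *NDUFS7* (-0.12) did not pass.

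Among the 28 accessory subunits of complex I, which surround the core and serve its assembly and stability, 7 were higher and 6 lower, with a median of 0.04. The highest was *NDUFB3*, at 1.37, 0.85, 0.64 and 0.48 on the LIM arrays and 0.70, 0.44, 0.20 and 0.10 on the HER arrays, with a mean of 0.60 ± 0.12 (SE; limma adjusted p = 0.00372). *NDUFS5* (0.59), *NDUFA7* (0.57), *NDUFB8* (0.51) and *NDUFS6* (0.32) were also above 0 on all 8 arrays, and *NDUFB1* (0.34) and *NDUFV3* (0.29) on 7 of 8. The lowest was *NDUFB9*, at -0.68, -0.85, -0.54 and 0.03 on the LIM arrays and -0.58, -0.47, -0.17 and -0.25 on the HER arrays. Its mean was -0.44 ± 0.11 (SE; limma adjusted p = 0.0108), and LIM replicate 4 was again the array not below 0. *NDUFA9* (-0.35), *NDUFA8* (-0.32), *NDUFC1* (-0.29), *NDUFA12* (-0.25) and *NDUFA5* (-0.22) were the other accessory subunits called lower. Genes of the membrane arm, to which *NDUFB3* and *NDUFB9* belong, were thus found at both ends. *NDUFA5* was opposed between the comparisons, with -0.70, -0.68, -0.81 and -0.41 on the LIM arrays and 0.13, 0.39, 0.04 and 0.26 on the HER arrays. The LIM minus HER difference was -0.86 on the log2 scale, the largest in size below 0 among the members, and did not pass (limma adjusted p = 0.0772). Of the 2 assembly factors that the rule takes in, *NDUFAF7*, which acts early in assembly, was lower at -0.40 ± 0.13 (SE; limma adjusted p = 0.033), a call lost when any array except LIM replicate 4 was left out (limma adjusted p from 0.0553 to 0.0874) and with normexp and loess (limma adjusted p = 0.0903). *NDUFAF4* had -0.17 and did not pass.

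In complex II the subunits went in different directions. *SDHB*, the iron-sulfur subunit, had ratios of 0.70, 0.40, 0.41 and -0.03 on the LIM arrays and 0.39, 0.39, 0.35 and -0.01 on the HER arrays. Replicate 4 of each comparison was near 0 and the other 6 arrays were above it. The mean was 0.33 ± 0.10 (SE; limma adjusted p = 0.0237), a call lost on leaving out any array other than replicate 4 of either comparison (limma adjusted p from 0.0551 to 0.0629) and with normexp and loess (limma adjusted p = 0.119). *SDHD*, a membrane anchor, had -0.78, -0.79, -0.48 and -0.07 in LIM and -0.59, -0.78, -0.13 and -0.45 in HER, below 0 on all 8 arrays, with a mean of -0.51 ± 0.11 (SE; limma adjusted p = 0.00606). The other anchor, *SDHC*, had a mean of -0.02 ± 0.10 (SE; limma adjusted p = 0.889). The flavoprotein *SDHA*, which the rule leaves out, was higher at 0.29 ± 0.10 (SE; limma adjusted p = 0.0472).

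In complex III, the 3 core genes measured were lower, each on all 8 arrays. *CYC1* encodes cytochrome c1, the subunit that hands electrons to cytochrome c. It had ratios of -1.12, -0.65, -0.76 and -0.07 on the LIM arrays and -0.52, -0.83, -0.43 and -0.24 on the HER arrays, with replicate 4 closest to 0 in both. The mean was -0.58 ± 0.12 (SE; limma adjusted p = 0.00535), or 1.49-fold lower. *UQCRC1*, a core protein facing the matrix, had -0.51, -0.57, -0.79 and -0.63 in LIM and -0.51, -0.56, -0.31 and -0.39 in HER. Its arrays were among the least spread of the called members, with a mean of -0.53 ± 0.07 (SE; limma adjusted p = 0.000601). *UQCRFS1*, the Rieske iron-sulfur protein, had a mean of -0.36 ± 0.08 (SE; limma adjusted p = 0.00667), from -0.60 to -0.11 over the arrays. Of the small subunits, *UQCRQ* (-0.24), *UQCRH* (-0.09) and *UQCR10* (0.05) did not pass.

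ATP synthase had no member called lower, and its 4 genes called higher were small subunits. *ATP5F1E*, the epsilon subunit of the central stalk of F1, had ratios of 2.26, 1.43, 1.75 and 0.54 on the LIM arrays and 2.17, 1.62, 1.96 and 0.96 on the HER arrays. All 8 were above 0, and replicate 4 was the lowest of each comparison. The mean was 1.59 ± 0.20 (SE; limma adjusted p = 0.000504), or 3.00-fold higher. *ATP5MJ*, a small membrane subunit, had 1.48, 1.38, 1.16 and 0.56 in LIM and 1.41, 1.38, 0.85 and 0.57 in HER, with a mean of 1.10 ± 0.14 (SE; limma adjusted p = 0.000505). *ATP5MG* and *ATP5ME*, the g and e subunits of the membrane part, where the enzyme forms dimers, had means of 0.66 ± 0.14 (SE; limma adjusted p = 0.00558) and 0.56 ± 0.12 (SE; limma adjusted p = 0.00515). The lowest array was LIM replicate 4 for both, at -0.03 and 0.06.

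The catalytic subunits of ATP synthase did not follow. *ATP5F1A* (alpha) had ratios of -0.11, 0.05, -0.26 and -0.38 on the LIM arrays and 0.12, 0.01, 0.04 and -0.06 on the HER arrays, with a mean of -0.08 and a 95% interval from -0.24 to 0.09. *ATP5F1B* (beta) had a mean of -0.14, with an interval from -0.32 to 0.04, and neither passed. *ATP5F1D* (-0.02), *ATP5PO* (-0.04) and *ATP5PF* (0.25) did not pass either. The 3 genes of the c ring, the rotor in the membrane, were *ATP5MC1* (-0.17), *ATP5MC2* (0.22) and *ATP5MC3* (-0.25), none of which passed, and these genes encode the same mature protein. *ATP5IF1*, the inhibitor that blocks ATP hydrolysis, was above 0 on all 8 arrays, from 0.04 to 0.59, with a mean of 0.29 ± 0.10 (SE; limma adjusted p = 0.0422).

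**Figure D3:**
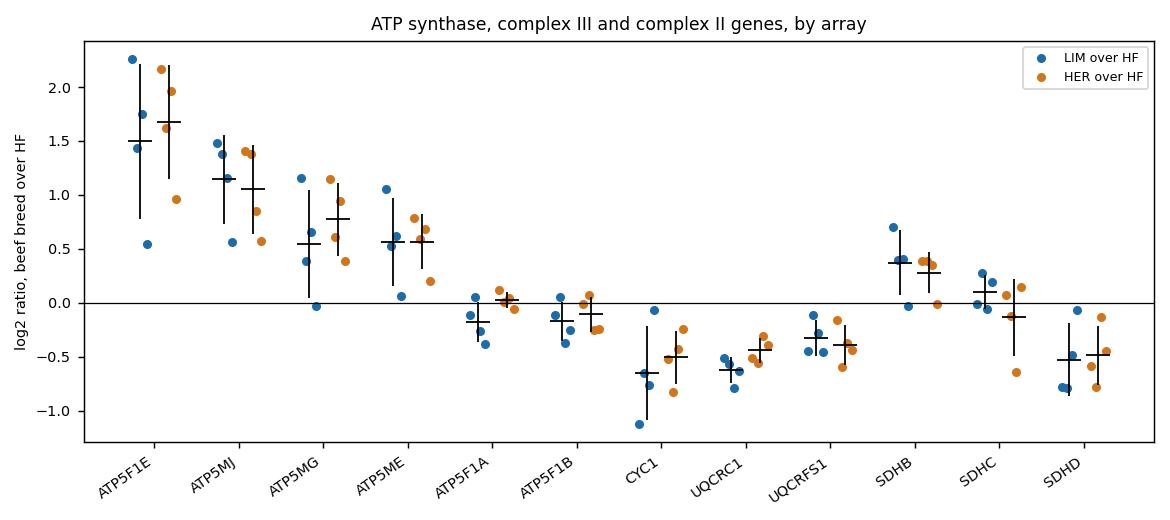
Log2 ratio of beef breed over HF cells on each array for 12 genes of complexes V, III and II. Blue points are the 4 LIM arrays and orange points the 4 HER arrays, each set in the order of the replicate numbers, with the mean (bar) and SD (line). *ATP5F1E* lies between 0.54 and 2.26 and *ATP5F1A* between -0.38 and 0.12.

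In complex IV, the muscle and general forms of one subunit both rose, and the muscle form rose more. *COX7A1*, the heart and skeletal muscle form of subunit VIIa, had ratios of 2.42, 1.29, 1.82 and 0.43 on the LIM arrays and 1.72, 1.71, 1.72 and 0.70 on the HER arrays. All 8 arrays were above 0, and replicate 4 was the lowest in both comparisons. The mean was 1.48 ± 0.22 (SE; limma adjusted p = 0.000999), or 2.78-fold higher. *COX7A2*, the form found in most tissues, had 0.91, 0.65, 0.25 and 0.00 in LIM and 1.03, 0.88, 0.56 and 0.53 in HER, with a mean of 0.60 ± 0.12 (SE; limma adjusted p = 0.00365). Within an array the ratio of *COX7A1* exceeded that of *COX7A2* by 0.88 ± 0.50 (SD, n = 8), on 8 of 8 arrays, with LIM at 1.04 ± 0.59 and HER at 0.71 ± 0.41 (both SD, n = 4). A two-sided exact sign-flip test gave p = 0.00781, the smallest that 8 arrays allow, and 0.0117 after adjustment over the 3 pairs that could be computed. The 4 arrays of LIM or HER alone are too few for this test to reach 0.05. With normexp and loess the difference was 0.56 (exact sign-flip p = 0.0312).

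The other muscle form measured did not rise. *COX6A2*, the heart and skeletal muscle form of subunit VIa, had ratios of -0.70, -0.46, 0.20 and -0.20 on the LIM arrays and -0.93, -0.39, -0.25 and -0.05 on the HER arrays. Only LIM replicate 3 was above 0. Its mean of -0.35 ± 0.13 (SE; limma adjusted p = 0.0539) did not pass, and did when HER replicate 4 or LIM replicate 3 was left out (limma adjusted p = 0.0459 and 0.0323), or when only probes above background in all 16 channels were tested (limma adjusted p = 0.0463). Its general partner had no matched probe here, so this pair was not compared. *COX6B2*, known as the testis form of subunit VIb, was the lowest member, with -0.94, -1.04, -1.29 and -1.75 in LIM and -1.16, -0.97, -0.49 and -0.57 in HER. Its mean was -1.02 ± 0.12 (SE; limma adjusted p = 0.000383), or 2.03-fold lower, and whether its probe also binds its general relative was not tested.

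The forms of subunit IV could not be told apart. *COX4I1*, the general form, had a mean of 0.31 ± 0.09 (SE; limma adjusted p = 0.0224). That call was lost without HER replicate 1 or 2 or LIM replicate 1, 2 or 3 (limma adjusted p from 0.0552 to 0.0594) and with normexp and loess (limma adjusted p = 0.217). *COX4I2*, known from lung and from the response to low oxygen, had 0.31, 0.41, 1.19 and 1.45 on the LIM arrays and -0.86, -0.10, 0.33 and 0.20 on the HER arrays. The LIM arrays were all above 0 and the HER arrays lay on both sides of it. Its mean of 0.37 ± 0.17 (SE; limma adjusted p = 0.116) did not pass, and it was the dim probe described above. The *COX4I2* minus *COX4I1* difference was 0.06 ± 0.77 (SD, n = 8), above 0 on 4 of 8 arrays (two-sided exact sign-flip test, p = 0.844), and it turned to -0.13 without LIM replicate 4 and to -0.04 without LIM replicate 3. *COX7B* was higher at 0.55 ± 0.14 (SE; limma adjusted p = 0.0117). *COX8A* (0.10) and *COX7A2L* (0.17), a factor that joins complexes III and IV, did not pass.

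*NDUFA4*, first assigned to complex I and now counted with complex IV, and its relative *NDUFA4L2*, which is induced by low oxygen and holds complex I activity down, moved apart. *NDUFA4* had ratios of 1.92, 0.91, 0.93 and -0.36 on the LIM arrays and 1.17, 1.61, 1.06 and 0.37 on the HER arrays. LIM replicate 4 was the only array below 0. The mean was 0.95 ± 0.23 (SE; limma adjusted p = 0.0106). *NDUFA4L2* had -0.52, -0.39, -0.59 and -0.67 in LIM and -0.16, -0.72, -0.48 and -0.11 in HER, below 0 on all 8 arrays, with a mean of -0.45 ± 0.09 (SE; limma adjusted p = 0.00387). The *NDUFA4L2* minus *NDUFA4* difference was -1.41 ± 0.76 (SD, n = 8), above 0 on 0 of 8 arrays, with LIM at -1.39 ± 0.88 and HER at -1.42 ± 0.77 (both SD, n = 4). It had p = 0.00781 in the two-sided exact sign-flip test and 0.0117 after adjustment over the 3 pairs.

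**Figure D4:**
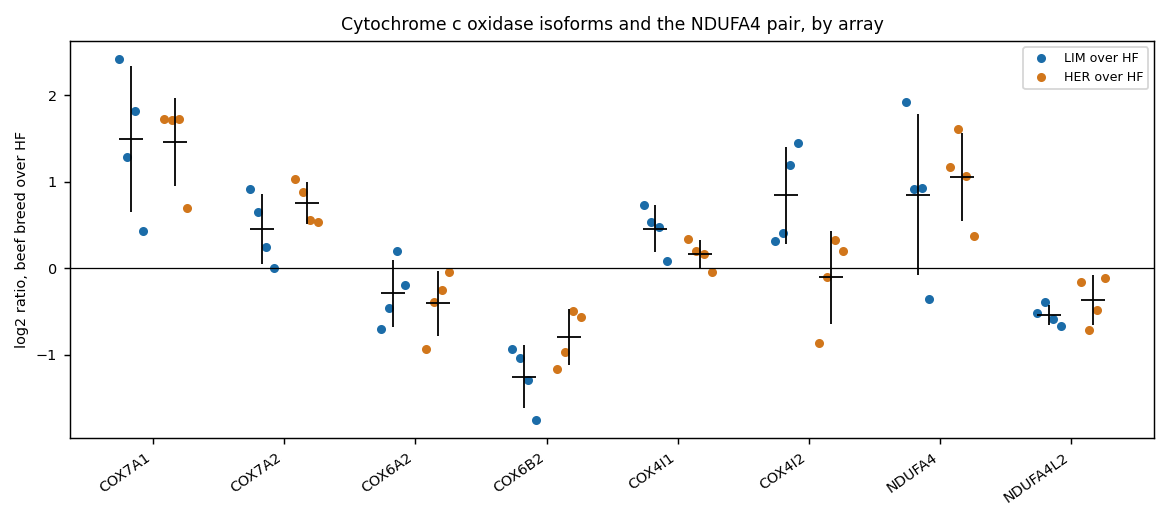
Log2 ratio of beef breed over HF cells on each array for complex IV isoforms and the NDUFA4 pair. Blue points are the 4 LIM arrays and orange points the 4 HER arrays, in the order of the replicate numbers, with the mean (bar) and SD (line). *COX7A1* lies above 0 on all arrays (0.43 to 2.42) and *COX6B2* below it (-1.75 to -0.49).

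Replicate 4 of both comparisons had low values for several of the genes called higher, which was looked at after their values were seen. *ATP5F1E*, *COX7A1*, *ATP5MJ*, *NDUFA4* and *SDHB* all had their lowest LIM value on LIM replicate 4 and their lowest HER value on HER replicate 4. The same arrays had the highest median of the genes of dividing cells in their comparison, 0.46 on LIM replicate 4 and -0.23 on HER replicate 4, against -1.44 to -0.87 on the other LIM arrays and -1.12 to -0.63 on the other HER arrays. They also had the lowest medians of 4 other marker lists in their comparison, at 0.19 and 0.46 for fibroblasts, 1.12 and 0.73 for myoblasts, 0.12 and 0.92 for smooth muscle cells and -0.99 and -0.51 for adipocytes. The medians of the differentiating muscle markers on them, 3.20 and 2.85, were not the lowest of their comparison. For leukocyte and endothelial markers, each with 2 genes, LIM replicate 4 had the highest LIM medians, at 1.12 and 3.46. HER replicate 4 had 0.49 and 1.15 for these lists, which were not the lowest HER medians. The part of cell division or of other cells in the respiratory chain ratios was not tested. Without both arrays, the *COX7A1* minus *COX7A2* difference was 1.07 and the *NDUFA4L2* minus *NDUFA4* difference -1.74.

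Genes around the respiratory chain were taken from 4 lists. Of 8 tested regulators of mitochondrial gene expression, 0 were higher and 1 was lower, with a median of 0.01. The lower one was *NRF1*, a transcription factor for nuclear genes of the respiratory chain. It had ratios of -0.84, -0.57, -0.96 and -0.30 on the LIM arrays and -0.97, -1.09, -0.87 and -0.68 on the HER arrays, with a mean of -0.78 ± 0.09 (SE; limma adjusted p = 0.000437). The coactivator *PPARGC1A* was spread from -0.89 to 2.82, with a mean of 0.74 ± 0.43 (SE; limma adjusted p = 0.18), and did not pass.

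Of 21 tested genes of a list of assembly factors, which also holds *SDHA*, 8 were higher and 4 lower, with a median of 0.07. The highest was *COX19*, a complex IV factor known for its part in copper delivery. It had ratios of 1.69, 1.06, 1.44 and 1.52 on the LIM arrays and 1.81, 1.15, 1.28 and 1.07 on the HER arrays, with a mean of 1.38 ± 0.11 (SE; limma adjusted p = 0.000146). *SCO1* (0.56 ± 0.10 SE) and *COX14* (0.42 ± 0.10 SE) were the next highest. *ECSIT*, a complex I assembly factor, was lower at -0.53 ± 0.12 (SE; limma adjusted p = 0.00911), and *BCS1L*, which inserts the Rieske protein into complex III, at -0.46 ± 0.14 (SE; limma adjusted p = 0.0277). *SDHAF3*, an assembly factor of complex II, was lower at -0.27 ± 0.08 (SE), and *COX10*, a complex IV factor that acts in heme A synthesis, at -0.26 ± 0.08 (SE; limma adjusted p = 0.0244). *BCS1L* was above 0 only on LIM replicate 4, at 0.15.

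The citric acid cycle and pyruvate dehydrogenase list, with 17 tested genes, had 2 higher, 4 lower and a median of -0.02. Citrate synthase (*CS*), an enzyme often used to gauge mitochondrial content, was lower on all 8 arrays, from -0.53 to -0.14, with a mean of -0.30 ± 0.07 (SE; limma adjusted p = 0.00999). *DLST*, a subunit of 2-oxoglutarate dehydrogenase, had -0.75, -0.73, -1.09 and -1.45 in LIM and -0.79, -0.68, -0.45 and -0.34 in HER, with a mean of -0.79 ± 0.10 (SE; limma adjusted p = 0.000607). *PDK4*, a kinase that shuts pyruvate dehydrogenase down, had a mean of -0.75 ± 0.08 (SE; limma adjusted p = 0.000284), from -0.94 to -0.51. The phosphatase *PDP2*, which acts the other way, was higher at 0.42 ± 0.09 (SE; limma adjusted p = 0.00537). Its LIM values were 1.05, 1.12, 0.97 and 0.62 and its HER values -0.15, 0.09, -0.38 and 0.05, and the difference between them did not pass (limma adjusted p = 0.0772). *PDHA1*, the catalytic subunit of the complex, was higher at 0.21 ± 0.07 (SE).

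Of 16 tested carriers and coupling genes, 2 were higher and 2 lower, with a median of -0.02. *CKMT2*, the sarcomeric mitochondrial creatine kinase of striated muscle, had 1.71, 1.37, 1.80 and 1.95 in LIM and 1.46, 1.06, 0.21 and 1.16 in HER, with a mean of 1.34 ± 0.14 (SE; limma adjusted p = 0.000296). Its signal was well above background in 7 of 8 beef breed channels but in only 3 of 8 HF channels (2 on the LIM arrays and 1 on the HER arrays), so it passed the filter through the group where it is high and the size of its ratios is uncertain. The ubiquitous form *CKMT1A* had -0.78, -0.80, -0.96 and -1.03 in LIM and -0.72, -0.41, -0.17 and -0.11 in HER, with a mean of -0.62 ± 0.09 (SE; limma adjusted p = 0.000835). *SLC25A4*, the heart and muscle ADP/ATP carrier, was higher on all 8 arrays, from 0.12 to 0.98, with a mean of 0.59 ± 0.10 (SE; limma adjusted p = 0.00186). The carriers of other tissues, *SLC25A5* (0.05 ± 0.09 SE) and *SLC25A6* (0.06 ± 0.11 SE), did not pass. *VDAC2*, a pore of the outer membrane, was lower at -0.54 ± 0.11 (SE; limma adjusted p = 0.00418).

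**Figure D5:**
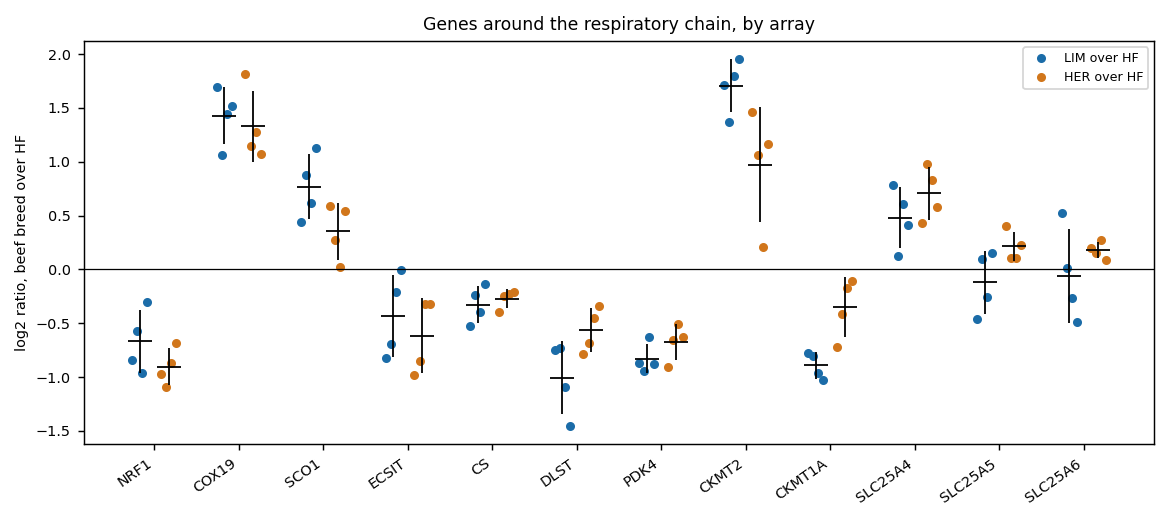
Log2 ratio of beef breed over HF cells on each array for 12 genes that regulate, assemble, feed or drain the respiratory chain. Blue points are the 4 LIM arrays and orange points the 4 HER arrays, in the order of the replicate numbers, with the mean (bar) and SD (line). *CKMT2* lies between 0.21 and 1.95 and *CKMT1A* between -1.03 and -0.11.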

How the data were processed

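Gene expression was measured on 8 two-colour arrays, with groups, dyes and replicate numbers taken from the sample labels. The authors deposited, for each array, Feature Extraction 10.7.3.1 output with the intensity of each of 44407 spots and its background in red (Cy5) and green (Cy3), and a log10 ratio (red over green), for which the software had subtracted background and normalized the dyes. The table of the whole series that the authors deposited holds the same log10 ratio for every spot. Here the ratio was put on the log2 scale and its sign turned where the beef breed was in Cy3. Control spots and outlying spots were dropped, spots of a probe were averaged, and the 17631 of 21475 probes with signal well above background in 4 or more of 16 channels were tested. No spot was saturated.

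LIM and HER means were fitted over all 8 arrays with limma 3.58.1 in R 4.3.3 (lmFit, eBayes), with their mean (beef over HF) and difference as contrasts, and Benjamini-Hochberg adjustment over all probes tested. Isoform pairs were compared within arrays by a two-sided exact sign-flip test. The limma fit was tested on simulated data, in which the arrays were independent and had no shared HF side. With only 4 arrays per comparison, their number limits precision. Members, lists and cell type markers were chosen with earlier results of these data known. Genes named are the isoform pairs, core subunits, the 8 highest and 8 lowest members, members opposed between comparisons, and the 3 highest and 3 lowest called genes of each list. Other members were named to account for the complexes, after their values were seen. Names rest on the RefSeq table of assembly ARS-UCD2.0, and no coordinates or sequences are given. Alternatives covered background correction and normalization, centring, the series table, the filter, outlier spots, the replicate block, array weights, the call, the methods' t-test, and leaving out arrays. The values of 1 member are not reported here, although counts and medians include it.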

Additional observations from a re-analysis of the deposited data

Results flagged for a closer look

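Of 138 sets of 4 arrays (69 genes in each comparison), 5 had an array far from the other 3, and chance alone gives about 1 in 20. *COX7A1* had 0.70 on HER replicate 4, against 1.71 to 1.72 on the others, and *SDHB* had -0.01 on HER replicate 4, against 0.35 to 0.39. *NDUFC1* had -0.66 on LIM replicate 3, against -0.30 to -0.24, and *NDUFS4* had -0.05 on LIM replicate 3, against 0.21 to 0.26. *NDUFV2* had 0.09 on HER replicate 3, against 0.02 to 0.03, a gap of small size.

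In 2 genes every HER array lay above 0 and every LIM array below it. How often probes in general show such a split is not given here, so the count is not read as a trait of the members. *NDUFB5* lay close to 0, between -0.20 and 0.11 over the arrays. The LIM minus HER difference was -0.86 for *NDUFA5* (limma adjusted p = 0.0772) and -0.17 for *NDUFB5* (limma adjusted p = 0.592), and neither passed. In these differences the breed cannot be told apart from the slide and the dyes.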

How the results depend on the processing

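With all arrays kept, the beef over HF counts stayed within 1.5 times of 18 higher and 16 lower, except that a fold change of at least 1.3, with an adjusted or an unadjusted p, left 8 lower. The LIM and HER counts were less stable. Normexp and loess gave 0 higher and 0 lower in HER, a complex IV median of 0.15, a *COX7A1* minus *COX7A2* difference of 0.56 (exact sign-flip p = 0.0312) and a *COX4I2* minus *COX4I1* difference of -0.15. That difference was -0.25 (exact sign-flip p = 0.0391) with marked backgrounds replaced, -0.21 without background correction, and -0.19 without replicate 4 of both comparisons. Centring, or an adjusted p with a fold change, left 5 lower in HER. Array weights gave 17 lower in LIM, 16 lower in HER and 1 called between LIM and HER, where an unadjusted p with a fold change gave 5. The methods' t-test at an unadjusted p and fold change gave 4 lower in LIM, and after Benjamini-Hochberg 0 higher and 3 lower in LIM and 0 and 0 in HER, with 13, 11, 14 and 16 at an unadjusted p of at most 0.05. Over all 17631 probes it passed 1077 in LIM and 2 in HER after Benjamini-Hochberg, and 5957 and 6306 at an unadjusted p. For most of these alternatives, and for leaving out arrays, the share of all probes called is not given here. Those counts are therefore not set against probes in general. The cause of these changes was not tested.

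Leaving out 1 array gave 6 to 17 higher and 3 to 14 lower in LIM, 2 to 13 and 1 to 15 in HER, 13 to 20 and 11 to 21 for beef over HF, and 0 between LIM and HER. The medians ranged from -0.06 to -0.03 for complex I, -0.07 to 0.07 for II, -0.37 to -0.24 for III, 0.30 to 0.38 for IV and 0.06 to 0.15 for V. The pair differences ranged from 0.78 to 0.98 for *COX7A1*, -0.13 to 0.24 for *COX4I2* and -1.56 to -1.26 for *NDUFA4L2*.

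After the mean of each comparison was subtracted, same-numbered arrays correlated with r of -0.24, 0.13, 0.30 and 0.54. HER replicate 4 matched LIM replicate 4 best, whereas HER replicates 1, 2 and 3 matched LIM replicates 2, 1 and 1 best. The numbers were therefore not taken to pair the samples. With the replicate block, 18 members were higher and 7 lower in LIM, 12 and 6 in HER, and 21 and 16 for beef over HF, and *COX6A2* (-0.35, limma adjusted p = 0.0223) and *COX4I2* (0.37, limma adjusted p = 0.0242) passed for beef over HF. Over the LIM, HER and beef calls of the genes named by the rule, 1668 values under an alternative kept their side of the threshold, 132 lost it and 73 gained it. Among values that passed in the main fit or under the alternative, 0 turned direction. Values that passed in neither were counted as kept, also where their sign changed. Each member had 1 probe, so the choice between probes could not matter, and *COX4I2* had no value where all 16 channels had to be above background.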
